A study of Homo sapiens with 9 samples.

Results

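SOX transcription factors were measured by 22 probe sets of the Affymetrix U133A array, which name SOX2, SOX3, SOX4, SOX5, SOX9, SOX10, SOX11, SOX12, SOX13 or SOX15 as their only gene. They are 22 of the 19065 probe sets that name a single gene, and 10 of the 11963 genes so named; the array holds 22283 probe sets in all. The cells of every group were A673, a line from a Ewing sarcoma with the EWS/FLI fusion. The study asked what the histone methyltransferase EZH2 contributes to the growth and the undifferentiated state of these tumours. Cells received 5 nM siRNA with a transfection reagent for 48 hours, either EZH2 siRNA no.2 (2 arrays), a further EZH2 siRNA that carries no number in its title, here called the unnumbered siRNA (1 array) or a control siRNA (2 arrays). For the histone deacetylase inhibitor trichostatin A (TSA), cells were exposed to 100 nM for 24 hours (2 arrays), and their controls to 0.01% DMSO, the solvent (2 arrays). The protocol names a transfection reagent for the siRNA cells only, so each treatment was set against its own control. All arrays come from 1 cell line, and the titles call the replicates biological without naming separate cultures. The p-values therefore rest on the spread among these arrays alone, which may be technical.

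SOX proteins are transcription factors that bind the minor groove of DNA through a high mobility group (HMG) box and bend it. They are grouped by the sequence of that box. SOX4, SOX11 and SOX12 form the SoxC group, which acts in neural and mesenchymal progenitors and early neurons. SOX2 and SOX3 (SoxB1) keep neural progenitors undifferentiated, and SOX2 is also a pluripotency factor. SOX9 and SOX10 (SoxE) act in cartilage and in neural crest derivatives, SOX5 and SOX13 belong to SoxD, and SOX15 is the SoxG member. In Ewing sarcoma SOX2 is known as a gene induced by the fusion. In mouse mammary cells SOX4 is known to activate transcription of EZH2.

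The siRNA labels were checked first on EZH2. Its signal was 572 and 271 with EZH2 siRNA no.2 and 681 with the unnumbered siRNA, against 1130 and 1172 with the control siRNA. It was 1256 and 1055 in TSA, against 990.1 and 861 in DMSO. All 3 EZH2 siRNA arrays lay below both control siRNA arrays. The arrays had median signals of 125 to 159 and trimmed means of 500.1 to 500.2, and their number limits the precision. Of 7 Ewing sarcoma markers 6 had a probe set, among them CD99 at 14839.9 to 19651 and NKX2-2 at 1363 to 5631. The summed signal of these 6 was 42593 to 46040.4 with EZH2 siRNA no.2, 48957 with the unnumbered siRNA and 50209 to 52072 with the control siRNA. It was 48598 to 49357 in TSA, against 50699 to 55360.1 in DMSO. CD99 and CAV1 had the highest mean signals (17680 and 15320), so these sums follow them most. The log2 fold change was negative for 6 of 6 markers with EZH2 siRNA no.2 and for 4 with TSA. NKX2-2 gave -0.97 (SE 0.42) and -0.09 (SE 0.42) in this order, and FCGRT gave -0.60 (SE 0.29) and -0.73 (SE 0.29). Of 10 leukocyte, epithelial and endothelial markers with a probe set, 6 (PTPRC, CD14, EPCAM, CDH1, CDH5 and VWF) had mean signals of 11.7 to 22.5, below the pseudocount of 25.1 that was added to each signal before taking log2. The epithelial marker KRT5 (46.9) and the endothelial marker TEK (27.8) lay above the pseudocount and below the filter on low signals, while the leukocyte marker CD3E (99.9) and the endothelial marker PECAM1 (111.7) passed that filter. The summed signal of the 3 leukocyte markers was 94.2 to 228 with EZH2 siRNA no.2 and 174 with the unnumbered siRNA, against 73.1 to 104 with the control siRNA. It was 150.4 to 184 in TSA, against 113 to 132.7 in DMSO. Every sample is labelled A673, so these sums are not read as a share of leukocytes. Only CD3E of the 3 passed the filter. It read 107 ± 82.4 (SD, n = 2) with EZH2 siRNA no.2 and 60.2 ± 17.2 with the control siRNA, and 132 ± 13.5 in TSA and 78.1 ± 11.9 in DMSO. What its signal stands for was not tested. The 3 epithelial markers summed to 96.5 to 104 with EZH2 siRNA no.2 and 60.1 with the unnumbered siRNA, against 78.2 to 105 with the control siRNA, and to 70.6 to 76.7 in TSA, against 43.7 to 82.5 in DMSO. The 4 endothelial markers summed to 175 to 194 with EZH2 siRNA no.2 and 161 with the unnumbered siRNA, against 163 to 183 with the control siRNA, and to 143 to 228 in TSA, against 143 to 167 in DMSO. In RNA from whole cultures, fewer cells of a kind and less RNA per cell cannot be told apart.

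Promoter sequence could be read for 6 of the 10 genes from RefSeq (GRCh38.p14), as 250 bases before to 50 after the start. A high content of CpG dinucleotides is a known feature of promoters that Polycomb complexes occupy, so the CpG count is shown for the pair of SoxC members with an entry and for SOX2. The windows lie on the plus strand at chr6:21593501-21593800 (SOX4), chr20:325302-325601 (SOX12) and chr3:181711675-181711974 (SOX2). Capitals mark each CpG, which reads the same on both strands.
SOX4: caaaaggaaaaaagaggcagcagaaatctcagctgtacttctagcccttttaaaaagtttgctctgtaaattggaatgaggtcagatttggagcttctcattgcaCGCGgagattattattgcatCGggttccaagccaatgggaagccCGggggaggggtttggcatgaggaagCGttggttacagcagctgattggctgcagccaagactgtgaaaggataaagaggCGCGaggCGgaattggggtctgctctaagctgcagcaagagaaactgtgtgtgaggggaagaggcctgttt
SOX12: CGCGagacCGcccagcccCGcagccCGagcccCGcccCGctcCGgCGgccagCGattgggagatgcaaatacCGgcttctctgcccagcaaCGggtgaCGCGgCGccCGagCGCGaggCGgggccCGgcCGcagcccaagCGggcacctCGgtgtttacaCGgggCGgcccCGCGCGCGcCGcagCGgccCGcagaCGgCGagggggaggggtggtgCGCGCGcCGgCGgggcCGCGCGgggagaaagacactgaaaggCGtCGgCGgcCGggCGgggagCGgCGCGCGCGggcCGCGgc
SOX2: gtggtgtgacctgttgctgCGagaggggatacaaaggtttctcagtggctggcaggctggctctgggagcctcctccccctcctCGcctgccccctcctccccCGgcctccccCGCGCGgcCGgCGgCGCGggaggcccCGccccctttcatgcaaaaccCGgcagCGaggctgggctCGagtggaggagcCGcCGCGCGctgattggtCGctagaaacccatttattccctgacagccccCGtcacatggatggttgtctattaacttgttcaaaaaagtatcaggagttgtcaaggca
The SOX4 window held 8 CpG, SOX12 held 54 and SOX2 held 20, against a median of 14 over 27305 promoters. At least as many were found in 60.1% of all promoters for SOX4, in 0.487% for SOX12 and in 41.2% for SOX2. The windows of SOX3, SOX5 and SOX13 held 20, 29 and 15. These letters describe the windows only and say nothing of EZH2 at them.

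SOX11, a SoxC factor of neural progenitors and immature neurons, was read by 3 probe sets. Over all arrays, treated ones included, 204913_s_at had the highest mean signal, 787.2 against 782.2 for 204914_s_at. In the controls 204914_s_at was the brighter, with means of 652.9 against 519.2 with the control siRNA and 720 against 517.3 in DMSO. The choice of 204913_s_at as the leading probe set thus rested on its treated arrays. Its signals were 839.5 and 1060.2 with EZH2 siRNA no.2 and 1082 with the unnumbered siRNA. With the control siRNA they were 490.4 and 548. In TSA the same probe set read 810.3 and 1219, against 403 and 631 in DMSO. Each EZH2 siRNA and TSA array was above each of the 4 control arrays, and the groups did not overlap in either experiment. On the scale of log2(signal + 25.1), which understates the change of dim probe sets, EZH2 siRNA no.2 gave a log2 fold change of 0.83 (SE 0.30, limma adjusted p = 0.920). It was 1.03 (SE 0.37, limma adjusted p = 0.951) with the unnumbered siRNA, whose lone array was assumed to vary like the other groups, and 0.94 (SE 0.30, limma adjusted p = 1.00) with TSA. The unadjusted limma p was 0.0192, 0.0187 and 0.0101 in this order, and none passed after adjustment over the 13671 probe sets tested. DMSO against the control siRNA, which differ in transfection and in hours as well, gave -0.04 (SE 0.30). By replicate number the log2 fold change was 0.75 and 0.92 with EZH2 siRNA no.2 and 0.96 and 0.92 with TSA.

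**Figure D1:**
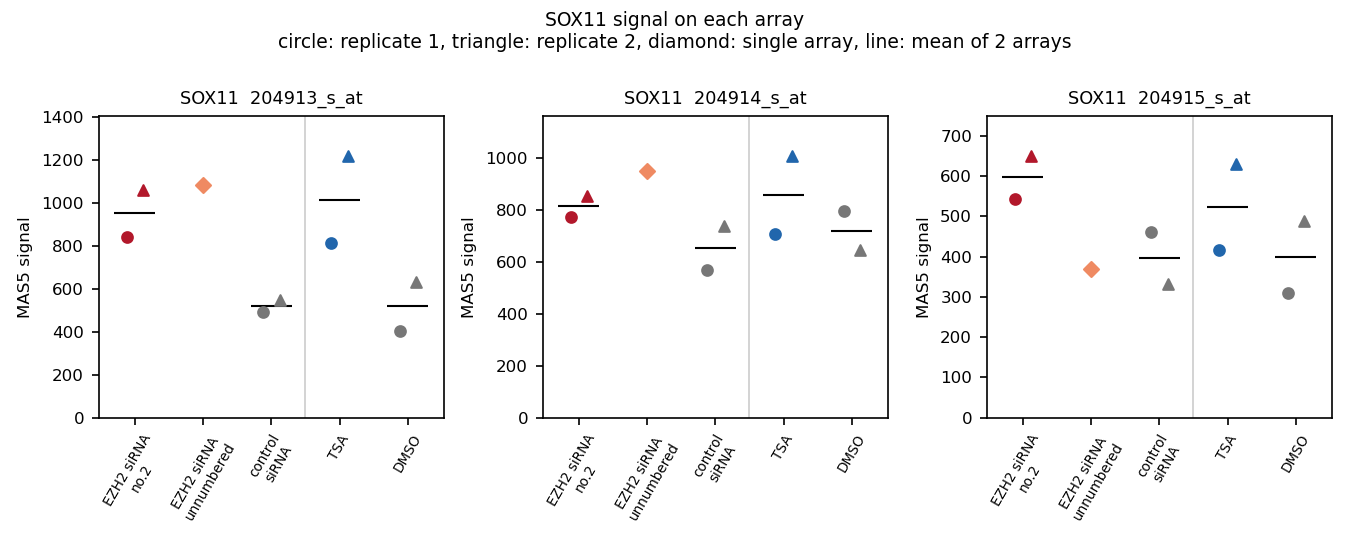
MAS5 signal (vertical axis, linear, from 0) of the 3 SOX11 probe sets on each of the 9 arrays, by treatment; points are arrays and lines are means of 2 arrays. On 204913_s_at the 5 treated arrays sit between 810.3 and 1219 and the 4 control arrays between 403 and 631, while treated and control arrays overlap on the other panels.

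The remaining SOX11 probe sets showed smaller differences. Probe set 204914_s_at read 774 and 853 with EZH2 siRNA no.2 and 949 with the unnumbered siRNA, against 567 and 738 with the control siRNA. Its EZH2 siRNA arrays were all above the control siRNA arrays (log2 fold change 0.32, SE 0.28, with no.2, and 0.53, SE 0.34, with the unnumbered siRNA). The TSA arrays read 707 and 1009.8, against 796 and 644 in DMSO, and these groups overlapped (log2 0.23, SE 0.28). Probe set 204915_s_at read 543 and 652 with EZH2 siRNA no.2 but 369.6 with the unnumbered siRNA, against 460.3 and 332 with the control siRNA. Its no.2 arrays were above the control siRNA arrays (log2 0.57, SE 0.32), whereas the unnumbered siRNA array lay between them (log2 -0.08, SE 0.39). With TSA the signals were 417 and 631, against 309 and 488 in DMSO, again with overlap (log2 0.38, SE 0.32). The 95% intervals of all 3 probe sets overlapped, at 0.16 to 1.5, -0.29 to 0.92 and -0.13 to 1.28 with EZH2 siRNA no.2 and at 0.27 to 1.61, -0.38 to 0.84 and -0.32 to 1.08 with TSA. A difference between the probe sets was not tested. Of the 3, only 204913_s_at was above every control array on all 5 treated arrays.

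The SOX11 effects of both treatments could not be told apart at this precision, and the intervals of their difference were wide. The TSA effect minus the effect of EZH2 siRNA no.2 was 0.11 on 204913_s_at (95% interval -0.84 to 1.06), -0.09 on 204914_s_at (-0.94 to 0.77) and -0.20 on 204915_s_at (-1.19 to 0.80), all with a limma adjusted p = 1.00. The mean of both effects, which share no arrays, was 0.89 (SE 0.22, limma adjusted p = 0.779), 0.27 (SE 0.20, adjusted p = 0.834) and 0.48 (SE 0.23, adjusted p = 0.779).

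SOX4, a SoxC factor of progenitors and of many tumours, was read by 5 probe sets. That of highest mean, 201417_at, had signals of 2389 and 2305 with EZH2 siRNA no.2 and 1913 with the unnumbered siRNA, against 1843 and 1537 with the control siRNA. TSA gave 2395 and 1852, against 1391 and 1702 in DMSO. The groups did not overlap in either experiment, although the lowest treated signal (1852, TSA) was close to the highest control signal (1843, control siRNA), and the order of these arrays was lost when each array was scaled to the same median. It gave a log2 fold change of 0.47 (SE 0.25, limma adjusted p = 0.920) with EZH2 siRNA no.2, 0.18 (SE 0.30) with the unnumbered siRNA and 0.45 (SE 0.25, limma adjusted p = 1.00) with TSA. Probe set 201418_s_at read 341 and 412 with EZH2 siRNA no.2 and 349 with the unnumbered siRNA, against 196 and 182 with the control siRNA. In TSA it read 224 and 310.5, against 146 and 231 in DMSO. The EZH2 siRNA arrays stood apart from the control siRNA arrays, and TSA overlapped DMSO. Its log2 fold change of 0.90 with EZH2 siRNA no.2 (SE 0.30, limma adjusted p = 0.920) was the highest of any SOX probe set tested in that comparison. It was 0.81 (SE 0.37) with the unnumbered siRNA and 0.46 (SE 0.30) with TSA.

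The other SOX4 probe sets varied more between arrays. Probe set 213665_at, a dim one, had signals of 81.5 and 93.2 with EZH2 siRNA no.2 and 102 with the unnumbered siRNA, against 31.1 and 77.5 with the control siRNA. The TSA arrays read 86.1 and 97.3, against 49.6 and 87.8 in DMSO. EZH2 siRNA and control siRNA arrays did not overlap and TSA overlapped DMSO. The spread of the control groups here was wider than their distance from the treated groups (log2 0.56, SE 0.41, with EZH2 siRNA no.2, and 0.35, SE 0.41, with TSA). Probe sets 201416_at (400.2 to 976) and 213668_s_at (110.1 to 320) overlapped between groups in both experiments, with log2 fold changes of 0.28 (SE 0.35) and 0.43 (SE 0.43) with EZH2 siRNA no.2 and of 0.24 (SE 0.35) and 0.20 (SE 0.43) with TSA. With the unnumbered siRNA they gave -0.12 (SE 0.42) and -0.17 (SE 0.53). All 5 SOX4 probe sets thus had positive log2 fold changes with EZH2 siRNA no.2 and with TSA, and these 5 share 1 gene and the same arrays.

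SOX12, the remaining SoxC factor, had 1 probe set, 204432_at. It read 184 and 205 with EZH2 siRNA no.2 and 309 with the unnumbered siRNA, against 127 and 141 with the control siRNA. With TSA the signals were 263 and 188, against 301 and 238 in DMSO. The control siRNA arrays were the lowest of the 9, and DMSO lay above them as well. SOX12 gave a log2 fold change of 0.46 (SE 0.29, limma adjusted p = 0.928) with EZH2 siRNA no.2 and 1.07 (SE 0.35, limma adjusted p = 0.951) with the unnumbered siRNA. DMSO against the control siRNA, a comparison that shares the control siRNA arrays with both, gave 0.88 (SE 0.29, limma adjusted p = 1.00), and TSA against DMSO gave -0.24 (SE 0.29). The TSA effect minus the effect of EZH2 siRNA no.2 was -0.71 (95% interval -1.60 to 0.19, limma adjusted p = 1.00).

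**Figure D2:**
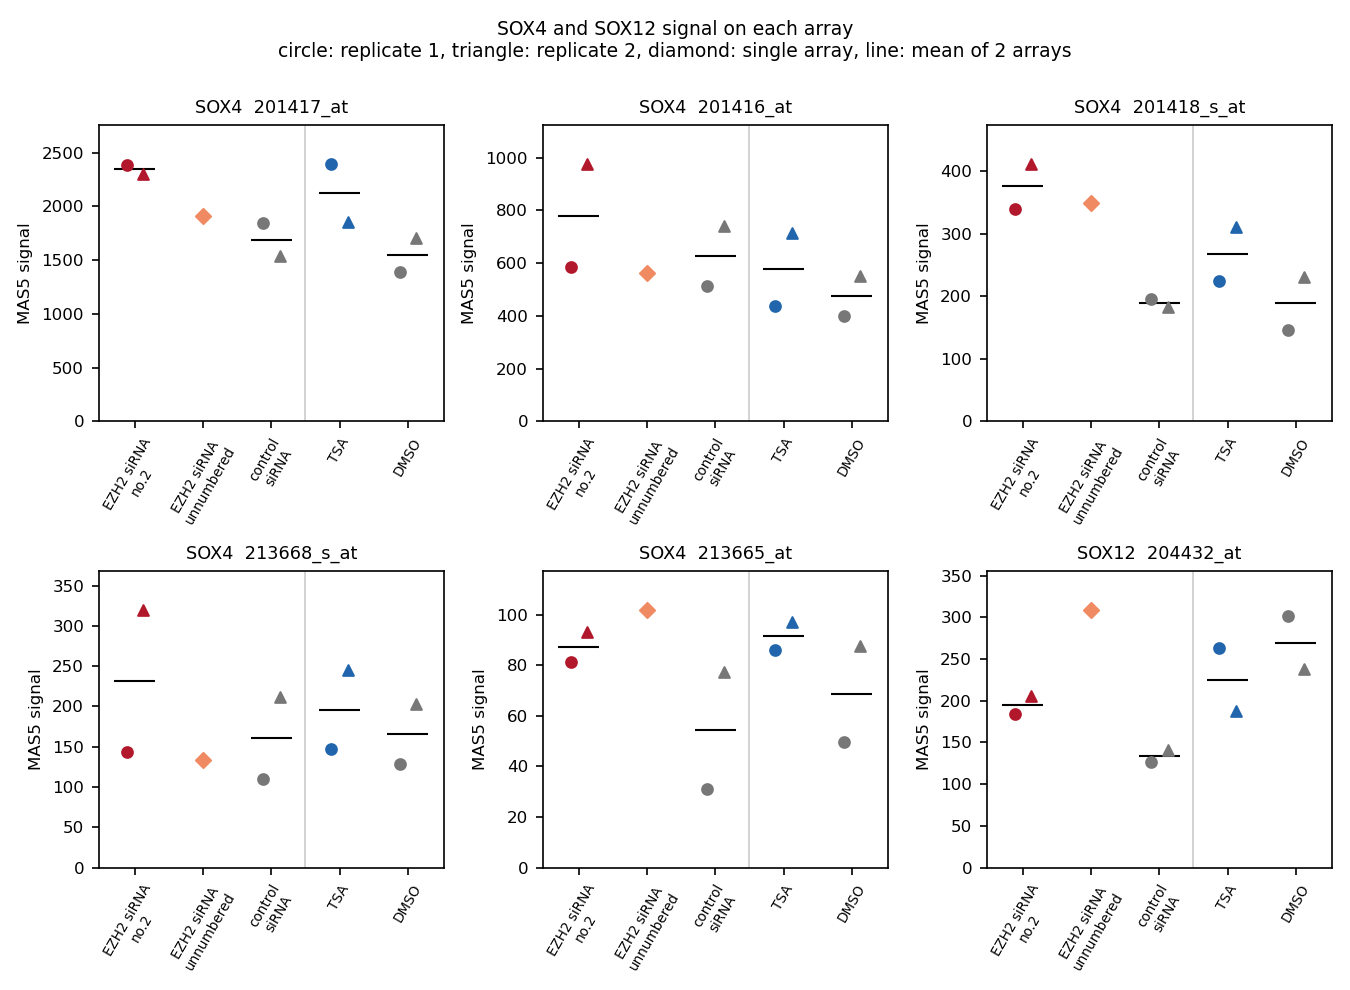
MAS5 signal (vertical axis, linear, from 0) of the 5 SOX4 probe sets and the SOX12 probe set 204432_at on each of the 9 arrays, by treatment; points are arrays and lines are means of 2 arrays. On 201418_s_at the EZH2 siRNA arrays (341 to 412) lie above the control siRNA arrays (182 and 196), and on 204432_at the control siRNA arrays (127 and 141) lie below all others.

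SOX2, the SoxB1 factor of neural progenitors and pluripotent cells, was read by 3 probe sets that did not share 1 pattern. Probe set 213721_at read 787 and 611 with EZH2 siRNA no.2 and 762 with the unnumbered siRNA, against 804 and 690.0 with the control siRNA. TSA gave 1227 and 723, against 894 and 745 in DMSO. Both comparisons overlapped (log2 -0.10, SE 0.30, with EZH2 siRNA no.2, and 0.20, SE 0.30, with TSA). Probe set 213722_at read 199.6 and 62.4 with EZH2 siRNA no.2 and 174 with the unnumbered siRNA, against 234 and 162 with the control siRNA. In TSA it read 424 and 78.4, against 267 and 83.9 in DMSO. On the scale of the signal, the 2 arrays of each group were further apart than the means of the groups compared (log2 fold change -0.65, SE 0.68, and 0.27, SE 0.68). The dimmer 214178_s_at read 97.9 and 111 with EZH2 siRNA no.2 and 105 with the unnumbered siRNA, against 68.4 and 78.5 with the control siRNA. The TSA arrays read 134.5 and 113, against 68.7 and 65.9 in DMSO. All 5 treated arrays exceeded all 4 control arrays, with log2 fold changes of 0.39 (SE 0.33, limma adjusted p = 0.943) with EZH2 siRNA no.2, 0.40 (SE 0.40) with the unnumbered siRNA and 0.69 (SE 0.33, limma adjusted p = 1.00) with TSA.

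SOX3, the other SoxB1 gene, had a single probe set (214633_at) below the filter on mean signal, which was set at 53.2. It read 7.63 and 20.03 with EZH2 siRNA no.2 and 17.6 with the unnumbered siRNA, against 43.0 and 56.5 with the control siRNA. With TSA the signals were 15.4 and 77.7, against 63.5 and 37.0 in DMSO. The EZH2 siRNA signals lay under the pseudocount and under those of the control siRNA, and the TSA arrays fell on both sides of DMSO. In the limma fit with no filter, its log2 fold change was -0.96 (SE 0.44, adjusted p = 0.913) with EZH2 siRNA no.2, the lowest of the 22 probe sets in that comparison. It was -0.80 (SE 0.54, limma adjusted p = 0.954) with the unnumbered siRNA and -0.20 (SE 0.44, limma adjusted p = 1.00) with TSA.

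SOX9, the SoxE factor that drives cartilage genes, was read by 2 probe sets. Probe set 202936_s_at had signals of 1255 and 1086 with EZH2 siRNA no.2 and 1012 with the unnumbered siRNA, against 1113 and 1861 with the control siRNA. TSA gave 1973 and 1663, against 1650.2 and 1788 in DMSO. The log2 fold change was -0.30 (95% interval -0.92 to 0.32) with EZH2 siRNA no.2, -0.50 (-1.26 to 0.26) with the unnumbered siRNA and 0.08 (-0.54 to 0.69) with TSA. The no.2 and control siRNA arrays overlapped, as did TSA and DMSO, whereas the unnumbered siRNA array lay below both control siRNA arrays. The control siRNA arrays were wide apart on this probe set and on 202935_s_at, where they read 577 and 1408 beside 789.5 and 836 with EZH2 siRNA no.2. Probe set 202935_s_at gave -0.15 (SE 0.37) with EZH2 siRNA no.2 and, at 906 and 953 in TSA against 714 and 1084 in DMSO, 0.08 (SE 0.37) with TSA. SOX10, the SoxE factor of glia and pigment cells, had 2 probe sets below the filter, with signals of 7.22 to 105 (209843_s_at) and 9.35 to 76.4 (209842_at). On 209843_s_at the high signals were 78.1 with EZH2 siRNA no.2 and 105 in TSA, each on a single array whose partner read 24.1 or 27.95 (log2 0.84, SE 0.50, and 1.00, SE 0.50, in the fit with no filter, limma adjusted p = 0.928 and 1.00).

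SOX13, a SoxD factor, was read by 2 probe sets. Probe set 38918_at read 141 and 180.5 with EZH2 siRNA no.2 and 135 with the unnumbered siRNA, against 79.4 and 132 with the control siRNA. In TSA it read 142 and 139, against 99.1 and 132 in DMSO. The lowest treated signal and the highest control signal were 135 and 132, so the arrays separated by a narrow margin (log2 0.53, SE 0.33, with EZH2 siRNA no.2 and 0.24, SE 0.33, with TSA). Probe set 209736_at read 106 and 122 with EZH2 siRNA no.2, against 38.2 and 159.9 with the control siRNA, and 132.6 and 162 in TSA, against 93.2 and 115 in DMSO. Its TSA arrays were above the DMSO arrays (log2 0.42, SE 0.46), and its control siRNA arrays enclosed all the EZH2 siRNA arrays, the unnumbered one at 50.5 included (log2 0.36, SE 0.46, with EZH2 siRNA no.2).

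SOX5, also of the SoxD group, lay under the pseudocount on 7 of 9 arrays (207336_at, 5.72 to 36.1). SOX15 had signals of 5.27 to 12.9 on 206122_at, under the pseudocount on all 9 arrays. Its other probe set, 217040_x_at, read 171 to 272. The suffix x marks probe sets whose probes may also bind other transcripts, so that signal cannot be credited to SOX15 alone. It gave -0.13 (SE 0.29) with EZH2 siRNA no.2 and -0.22 (SE 0.29) with TSA, with overlap in both. The unnumbered siRNA array read 184, below the control siRNA arrays at 254 and 246 (log2 -0.40, SE 0.35).

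**Figure D3:**
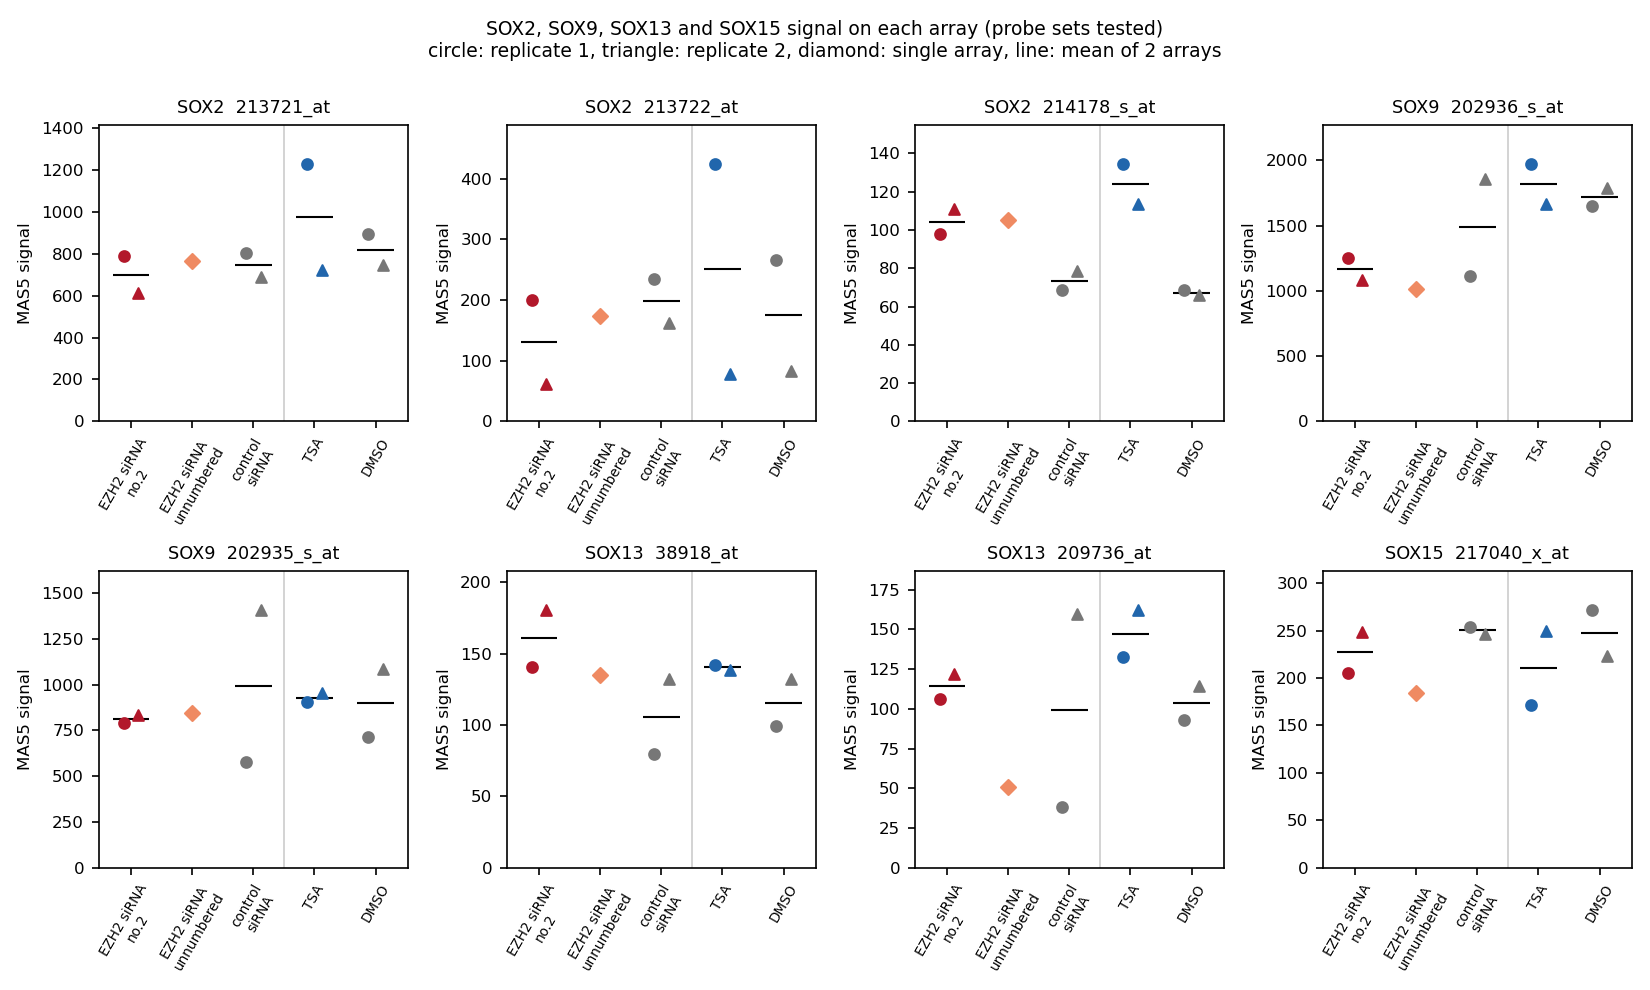
MAS5 signal (vertical axis, linear, from 0) of the tested SOX2, SOX9, SOX13 and SOX15 probe sets on each of the 9 arrays, by treatment; points are arrays and lines are means of 2 arrays. Treated and control arrays separate on 214178_s_at and narrowly on 38918_at, and the 2 arrays of a group lie far apart on 213722_at.

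Across the family, 0 SOX probe sets passed the adjusted threshold in any comparison, and their counts are given beside those of all one-gene probe sets. The groups did not overlap and were higher with EZH2 siRNA no.2 for 11 of 22 SOX probe sets (50%), where 22.5% of all one-gene probe sets were, and lower for 1 (12.7% of all). With the unnumbered siRNA, 11 were above both control siRNA arrays (39.6% of all) and 4 below (27.3% of all). TSA was above DMSO without overlap for 5 of 22 (22.7%), where 16.3% of all were, and below for 0 (12.6% of all). DMSO was above the control siRNA for 2 (19.6% of all) and below for 0 (13.9% of all). These counts include dim probe sets below the filter. With EZH2 siRNA no.2 they were SOX10 209843_s_at and SOX15 206122_at (higher) and SOX3 214633_at (lower). With the unnumbered siRNA they were SOX5 207336_at, SOX10 209842_at and SOX15 206122_at (higher), and SOX3 214633_at and SOX10 209843_s_at (lower). For DMSO it was SOX5 207336_at. On SOX15 206122_at the no.2 arrays read 8.37 and 9.93, against 7.51 and 7.98 with the control siRNA. The median log2 fold change over all 22 was 0.34 with EZH2 siRNA no.2, 0.03 with the unnumbered siRNA, 0.24 with TSA and 0.04 for DMSO against the control siRNA. Over all 19065 probe sets these medians were 0.07, 0.06, 0.03 and 0.04. Several probe sets share 1 gene and all share the same arrays, so the 22 are not independent of each other. The members were also chosen with earlier results of these data known, so a share above that of all probe sets is not independent support. Which transcripts each one reads was not examined. Over the 9 arrays, SOX11 204913_s_at had a Pearson r of 0.70 with 204914_s_at and 0.65 with 204915_s_at. Between 204914_s_at and 204915_s_at it was 0.20.

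The mean signal passed the filter for 17 of the 22, and these were tested with limma. At an unadjusted limma p under 0.05 stood 2 of 17 with EZH2 siRNA no.2 (SOX4 201418_s_at and SOX11 204913_s_at), where 5.27% of all probe sets tested did. There were 2 with the unnumbered siRNA (SOX11 204913_s_at and SOX12 204432_at, 5.00% of all), 1 with TSA (SOX11 204913_s_at, 2.41% of all) and 1 for DMSO against the control siRNA (SOX12 204432_at, 4.26% of all). For the difference of the effects there were 0 (1.71% of all) and for their mean 4 (6.27% of all), which were SOX11 204913_s_at, SOX4 201418_s_at, SOX4 201417_at and SOX2 214178_s_at. In each of the 6 comparisons 0 of the 13671 probe sets passed an adjusted limma p of 0.05, and the lowest adjusted p of any probe set was 0.398. With no filter, which admits all 22, the unadjusted counts were 2, 2, 1, 1, 0 and 5 in the same order of comparisons, where 5.34%, 5.44%, 3.26%, 4.54%, 2.59% and 6.19% of all did.

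**Figure D4:**
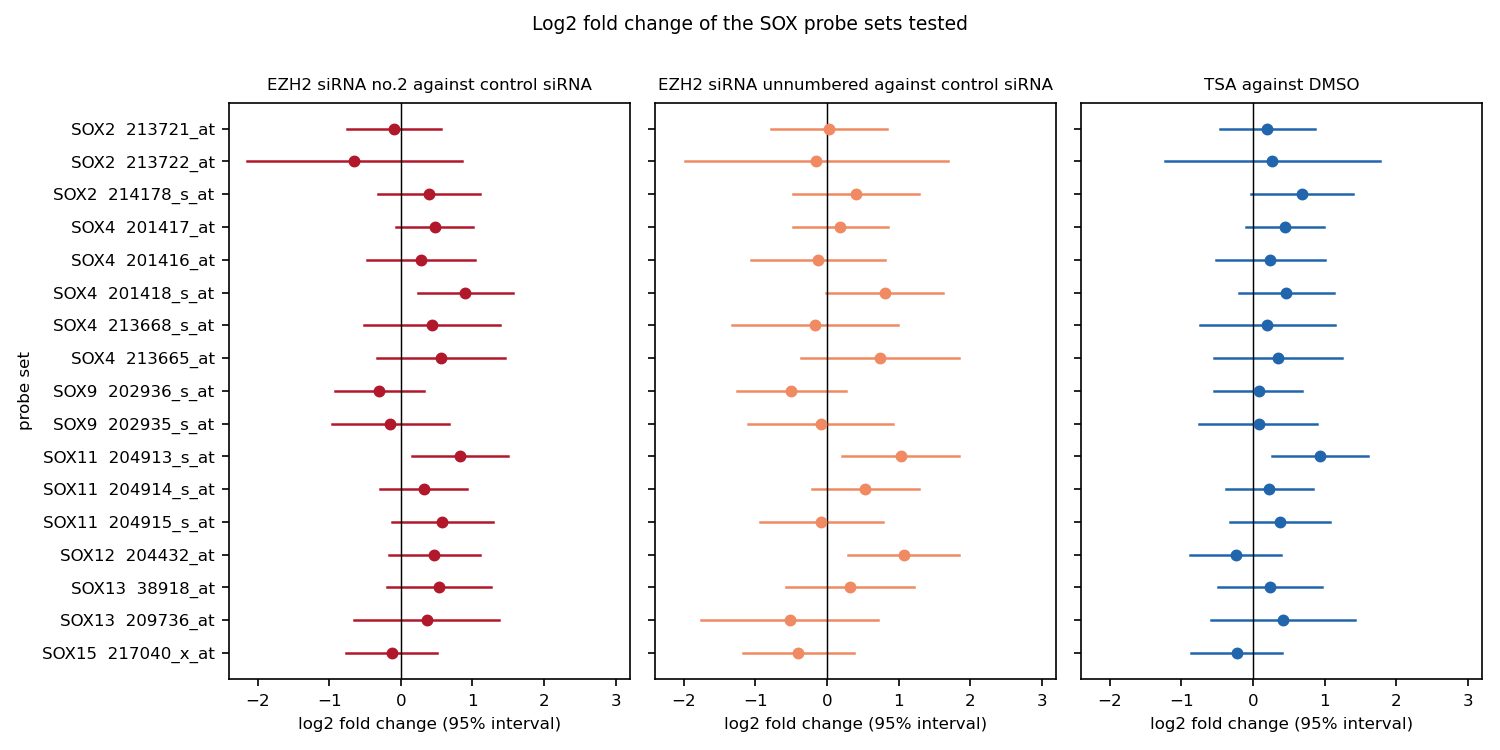
Log2 fold change on the scale of log2(signal + 25.1) (horizontal axis) of the 17 tested SOX probe sets in 3 comparisons; points are estimates and bars are 95% intervals from limma, unadjusted. The interval of SOX11 204913_s_at lies above 0 in all 3 panels, as does that of SOX4 201418_s_at with EZH2 siRNA no.2 and that of SOX12 204432_at with the unnumbered siRNA.

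Both treatments were then set side by side on single arrays, a choice made after the values had been seen. The members too were chosen with earlier results of these data known. All 5 treated arrays (3 EZH2 siRNA and 2 TSA) were above all 4 control arrays for 4 of 22 SOX probe sets, SOX11 204913_s_at, SOX4 201417_at, SOX2 214178_s_at and SOX13 38918_at. This held for 1.99% of all one-gene probe sets, and the opposite order held for 0 SOX probe sets and 1.25% of all. When all arrays were brought to 1 median, 3 of 22 remained, without SOX4 201417_at, where 0.907% of all were higher and 2.25% lower. After quantile normalization all 4 remained, where 1.34% of all were higher and 1.55% lower. The balance of higher and lower over all probe sets thus turned with the scaling. Under either scaling 0 of 22 SOX probe sets were lower, which is near these small shares of all and shows no direction of its own.

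Replicate number moved with several SOX signals. On SOX2 213722_at the replicate 2 array was lower than the replicate 1 array in every group, by log2 differences of -1.36 with EZH2 siRNA no.2, -0.47 with the control siRNA, -2.12 in TSA and -1.42 in DMSO. SOX2 213721_at was also lower in replicate 2 in all 4 groups, by -0.74 to -0.21. On 6 probe sets replicate 2 was higher in all 4 groups, among them SOX4 201416_at (0.43 to 0.72), SOX4 213668_s_at (0.57 to 1.04) and SOX11 204913_s_at (0.15 to 0.62). Of the 22 SOX probe sets, 27.3% were higher and 9.09% lower in replicate 2 in all 4 groups. Over all one-gene probe sets these shares were 14.9% and 9.37%, so the lower share of the SOX probe sets was near that of all. The hybridisation control probe sets, which read RNA added to every sample, had mean log2 signals of 10.43 to 10.53 on the replicate 2 arrays and 9.81 to 10.16 on those of replicate 1. The unnumbered siRNA array had 9.80, near those of replicate 1, and was compared with both control siRNA arrays. On SOX9 202935_s_at it read 846, against 577 on control siRNA replicate 1 and 1408 on replicate 2, so its direction there turned with the control array, whereas on SOX11 204913_s_at, SOX12 204432_at and SOX4 201418_s_at it was above both. The part of these controls in the SOX signals was not tested.

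**Figure D5:**
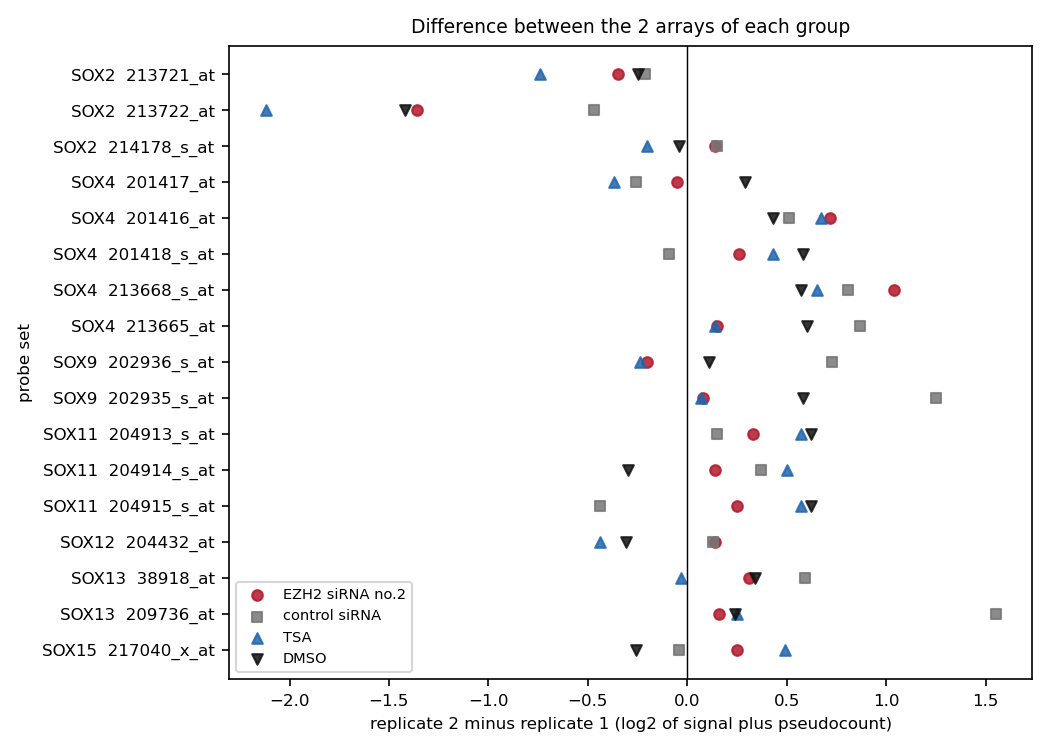
Difference of replicate 2 minus replicate 1 in log2(signal + 25.1) (horizontal axis) for the 17 tested SOX probe sets; each point is 1 of the 4 groups with 2 arrays. All 4 points of SOX2 213722_at lie between -2.12 and -0.47, and all 4 of SOX4 213668_s_at between 0.57 and 1.04.

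Genes that work with SOX factors or are known as their targets were taken from lists and read by their brightest probe set. Of 8 partner factors 6 had a probe set and 4 were tested, and 0 stood at an unadjusted limma p under 0.05 with EZH2 siRNA no.2 or TSA. The partner factor CTNNB1, named after its value was seen, gave -0.76 (SE 0.34) with the unnumbered siRNA, a single array. It gave 0.02 (SE 0.28) with EZH2 siRNA no.2 and 0.11 (SE 0.28) with TSA. TCF7L2, a Wnt pathway factor, read 1000.1 ± 171 (SD, n = 2) with EZH2 siRNA no.2 and 635 ± 286 with the control siRNA (log2 0.70, SE 0.33), and 939.6 ± 104 in TSA and 851 ± 196 in DMSO (log2 0.15). PAX6, a neural factor that binds DNA with SOX2, read 646 ± 225 with EZH2 siRNA no.2 and 991 ± 452 with the control siRNA (log2 -0.56, SE 0.36), and 666 ± 72.2 in TSA and 1066 ± 273 in DMSO (log2 -0.64, SE 0.36). The SoxC target TUBB3, a neuronal tubulin, read 8389 ± 849.7 with EZH2 siRNA no.2 and 7963 ± 1416 with the control siRNA (log2 0.08, SE 0.23), and 6834 ± 1414 in TSA and 8218 ± 274 in DMSO (log2 -0.28, SE 0.23). MAP2, a dendritic protein, gave 0.31 (SE 0.43) with EZH2 siRNA no.2 and -0.41 (SE 0.43) with TSA. So the 2 tested SoxC targets had positive values with EZH2 siRNA no.2 and negative ones with TSA, with 0 at an unadjusted limma p under 0.05. DCX, also of that list, was below the filter.

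Of the 10 SOX9 cartilage targets 6 were tested, with 0 at an unadjusted limma p under 0.05 in either main comparison and a median log2 fold change over all 10 of 0.07 with EZH2 siRNA no.2 and 0.26 with TSA. COL9A2 gave 0.47 (SE 0.30) and COL11A2 0.24 (SE 0.30) with EZH2 siRNA no.2. COL9A2 gave 0.82 (SE 0.37, limma adjusted p = 0.951) with the unnumbered siRNA, and DMSO against the same control siRNA arrays gave 0.68 (SE 0.30, limma adjusted p = 1.00). COL9A3, named after its value was seen, gave -1.57 (SE 0.52, limma adjusted p = 0.951) with the unnumbered siRNA and 0.01 (SE 0.42) with EZH2 siRNA no.2. These 2 were at an unadjusted limma p under 0.05 with the unnumbered siRNA. The matrix proteins MATN1 and ACAN gave 0.58 (SE 0.41) and 0.56 (SE 0.53) with TSA. Of 7 SOX10 targets with a probe set 5 were tested, and 1 stood at an unadjusted limma p under 0.05 with EZH2 siRNA no.2 and 0 with TSA. The receptor RET read 1075 ± 243 with EZH2 siRNA no.2 and 1707 ± 159.98 with the control siRNA (log2 -0.67, SE 0.26, limma adjusted p = 0.920). RET gave -0.71 (SE 0.32) with the unnumbered siRNA and -0.26 (SE 0.26) with TSA, and DMSO against the control siRNA gave -0.59 (SE 0.26). The RET, ACAN and TUBB3 probe sets carry the suffix x, so other transcripts may add to their signals. GJB1, a glial connexin, gave 0.44 (SE 0.43) with EZH2 siRNA no.2, and the myelin gene MBP gave 0.17 (SE 0.33) with TSA. Of 5 SOX2 circuit genes with a probe set 2 were tested, and 1 stood at an unadjusted limma p under 0.05 with EZH2 siRNA no.2 and 0 with TSA. The progenitor filament gene NES read 770.4 ± 619 with EZH2 siRNA no.2 and 236 ± 105 with the control siRNA (log2 1.41, SE 0.52, limma adjusted p = 0.920), a difference of means that is smaller than the SD of the siRNA group. NES read 313 with the unnumbered siRNA. It gave -0.21 (SE 0.52) with TSA, and DMSO against the control siRNA gave 1.66 (SE 0.52), so the control siRNA arrays were also low beside DMSO. FGF4, a growth factor that SOX2 activates, gave 0.11 (SE 0.55) and -0.29 (SE 0.55). Of 7 other SOX genes 5 had a probe set and only SOX1 passed the filter (log2 -0.25, SE 0.59, with EZH2 siRNA no.2 and -0.38, SE 0.59, with TSA).

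The profile most like SOX11 204913_s_at over the 9 arrays was that of PANX1, a membrane channel gene (Pearson r = 0.962 on the log2 scale, n = 9 arrays). It was followed by HNRNPUL1, an RNA-binding protein gene (0.948), PARG, which encodes the enzyme that removes poly(ADP-ribose) (0.948), the metalloproteinase gene MMP27 (0.939) and the centromere protein gene CENPB (0.932). They were the 5 highest of 9102 genes compared, a description over arrays that share their treatments. The 5 treated arrays were above the 4 control arrays in PANX1, HNRNPUL1, PARG and MMP27, while CENPB overlapped, with a lowest treated signal of 449 and a highest control signal of 461. SOX11 204913_s_at itself separated these arrays, so this order follows largely from the choice of its closest profiles. It held for 2.14% of all probe sets tested. PANX1 averaged 575 with EZH2 siRNA no.2, 599 with the unnumbered siRNA and 454 with the control siRNA, and 564 in TSA and 439.8 in DMSO.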

How the data were processed

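RNA of 9 samples of A673 cells was hybridised to U133A arrays, 1 per sample. The deposited values are intensities, the MAS5 signals that the authors made, per the submitters' processing notes; its version was not given in the sources used here. Each array's mean trimmed by 2% per side was 500.1 to 500.2. No detection calls were used here. Of 22283 probe sets, 68 were controls, 19065 named 1 gene in the platform annotation, 1043 named several and 2107 named none.

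Signals were taken as log2(signal + 25.1), the 20th percentile of all values, and 13671 probe sets with a mean of at least 53.2 (30th percentile) were fitted over all 5 groups with limma 3.58.1 in R 4.3.3 (eBayes with trend, 4 residual degrees of freedom, Benjamini-Hochberg adjustment over all probe sets tested, threshold 0.05). The smallest exact two-sided p with 2 arrays against 2 is 0.333, so no exact test was made. The EZH2 siRNA with no number in its title had 1 array. The script was tested on simulated data. At a limma adjusted p under 0.05 it recovered 8.4% of 2-fold changes with EZH2 siRNA no.2 and 10.8% with TSA. Of 4-fold changes it recovered 63% and 68%. A count of 0 past the threshold thus does not show that 2-fold changes were absent.

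Groups came from the sample titles. All 22 SOX probe sets are described, the SOX11 ones and each gene's brightest in full. The brightest was taken by the mean over all arrays, treated ones included. From each list the 2 tested genes of smallest p per main comparison were named, and the 5 genes most like SOX11. Members and lists were chosen with earlier results of these data known. Alternatives covered pseudocount, filter, scaling, groups fitted, trend, probe sets per gene, a replicate block and leaving out each array.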

Additional observations from a re-analysis of the deposited data

How the results depend on the processing

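Over 19 settings, 53 results on single SOX probe sets gave 754 further values, of which 718 kept their direction and 36 reversed, and 0 passed the adjusted threshold. The filter, the trend, 1 probe set per gene, fitting only the groups compared and the replicate block leave a log2 fold change as it was. No direction could turn there, so the kept values do not measure robustness. SOX11 204913_s_at was at 0.67 to 1.00 with EZH2 siRNA no.2, 0.92 to 1.10 with the unnumbered EZH2 siRNA and 0.64 to 1.25 with TSA. Each of its treated arrays was above each control array, so leaving out 1 array could not make these values negative. Scaling each array to the same median put the median over all probe sets with EZH2 siRNA no.2 at a log2 of -0.06, against 0.07 as deposited, and turned SOX9 202936_s_at with TSA to -0.0013. With the 3 EZH2 siRNA arrays as one group, the difference of effects on SOX11 204915_s_at was 0.02 and 1091 probe sets stood at an unadjusted limma p under 0.05, against 721. With no filter that count was 1038 for the unnumbered EZH2 siRNA, against 684, 622 for TSA, against 330, and 493 for the difference of effects, against 234, which was 149 with the filter at the 50th percentile. With only the groups of the comparison fitted, 1 probe set passed the adjusted threshold with the unnumbered EZH2 siRNA (ARTN 210237_at, a gene named after its value was seen, log2 -2.91, limma adjusted p = 0.0476). The causes were not tested.

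The groups share replicate numbers, which the labels do not tie to a shared culture or day, and deviations of same-numbered arrays correlated at 0.30, 0.36 and 0.24. With the replicate block, the unadjusted counts were 1183 with EZH2 siRNA no.2, 601 with TSA, 967 for DMSO against the control siRNA, 448 for the difference and 1384 for the mean of effects, and of 48 SOX results 0 passed the adjusted threshold (lowest limma adjusted p = 0.3). The unnumbered EZH2 siRNA has no number to pair.

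Leaving out 1 array at a time, where a lone array was assumed to vary like the other groups, gave unadjusted counts of 490.0 to 887 with EZH2 siRNA no.2, 562 to 907 with the unnumbered EZH2 siRNA, 145 to 1033 with TSA, 313 to 715 for DMSO, 163 to 525 for the difference and 381 to 1347 for the mean of effects, and adjusted counts of 0. The TSA count was 1033 without TSA replicate 2, 145 without DMSO replicate 1 and 525 without DMSO replicate 2. The DMSO count was 313 without DMSO replicate 1. The count for the difference was 473 without control siRNA replicate 1, 378 without TSA replicate 1 and 525 without TSA replicate 2. The count for the mean was 1347 without TSA replicate 2 and 381 without DMSO replicate 1.

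Directions that turned had these ranges. With EZH2 siRNA no.2 they were SOX13 209736_at (-0.41 to 1.14), SOX2 213721_at (-0.27 to 0.08), SOX2 213722_at (-1.33 to 0.03), SOX4 201416_at (-0.08 to 0.64), SOX4 213668_s_at (-0.09 to 0.95), SOX9 202935_s_at (-0.78 to 0.48) and SOX9 202936_s_at (-0.66 to 0.07). With TSA they were SOX11 204914_s_at (-0.02 to 0.48), SOX15 217040_x_at (-0.47 to 0.02), SOX2 213721_at (-0.17 to 0.57), SOX2 213722_at (-0.79 to 1.33), SOX4 201416_at (-0.09 to 0.58), SOX4 213668_s_at (-0.12 to 0.53), SOX9 202935_s_at (-0.22 to 0.37) and SOX9 202936_s_at (-0.05 to 0.20). With the unnumbered EZH2 siRNA it was SOX11 204915_s_at (-0.30 to 0.14). DMSO against the control siRNA gave -0.34 to 0.27, -0.04 to 0.32 and -0.32 to 0.30 for SOX11 204913_s_at, 204914_s_at and 204915_s_at, and the difference of effects gave -0.20 to 0.42, -0.33 to 0.16 and -0.51 to 0.11. The number of arrays, and signals near the pseudocount for SOX3, SOX5 and SOX10, limit these values.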
